A study of Rattus norvegicus with 6 samples.

Results

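Hdac1, Hdac2 and Hdac3 are 3 genes for class I histone deacetylases, the enzymes that MS-275 (entinostat) inhibits, and their transcripts were compared between control and drug-treated beta cells in culture. They are 3 of the 22250 genes listed in the deposited count tables. The members were chosen by identifier, ENSRNOG00000009568 for Hdac1, ENSRNOG00000000604 for Hdac2 and ENSRNOG00000019618 for Hdac3, with no threshold on their values, although earlier results of these data were known when they were chosen. The tables list identifiers alone, so each name stands for its identifier and was not checked against a second source. The question was whether the genes of the inhibited enzymes change when the enzymes are inhibited.

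The cells were BRIN-BD11, an insulin-secreting hybrid line from the NEDH rat strain, with islet cells and RINm5F insulinoma cells as its parents. All were at passage 25 and thus 1 line at 1 passage. The control group had no HDAC inhibitor by its labels, and the study describes it as treated with DMSO, the solvent of MS-275. Both groups are listed with 0.1% DMSO, whereas the paper's text gives a lower percentage for the controls. The MS-275 group received 5 µM MS-275 for 16 h, starting 24 h after seeding. Each group had 3 libraries, and nothing in the labels says that these came from separate cultures, so the p-values measure the spread between these libraries, which may be technical. The depth on genes was 7700713, 7982477 and 5692971 counts for the controls, in the order of their replicate numbers, and 5536188, 5230555 and 9172422 counts for the treated libraries. This order is kept wherever 3 values of a group follow each other. The beta cell label could not be checked against marker genes, because no marker could be matched to an identifier.

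Histone deacetylases remove acetyl groups from lysines of histone tails, which generally makes chromatin more compact and genes in it less transcribed. The class I enzymes Hdac1, Hdac2 and Hdac3 act mainly in the nucleus, inside large corepressor complexes. Hdac1 and Hdac2 are close paralogs that can pair with each other and serve as the catalytic subunits of the Sin3, NuRD and CoREST complexes, whereas Hdac3 is the catalytic subunit of the NCoR/SMRT complex. MS-275 is a benzamide that binds the catalytic site of these proteins and so blocks their activity. Hdac8, the remaining class I enzyme, was not analysed here.

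The 250 bases before the transcription start of each gene are printed because they lie directly upstream of the transcripts whose levels are given below. They come from RefSeq on GRCr8, a rat assembly other than the one used for counting (Rnor_6.0). They were matched to the members by symbol, for 3 of 3 members, and each is given 5′ to 3′ on the strand of its gene. Capitals mark GGGCGG, the GC box bound by Sp1-family factors, and CCAAT, the box bound by NF-Y, each searched on both strands, so that they also appear as CCGCCC and ATTGG. The windows are chr5:147165388-147165637 (minus strand) for Hdac1, chr20:42102877-42103126 (plus strand) for Hdac2 and chr18:30041026-30041275 (minus strand) for Hdac3.
Hdac1: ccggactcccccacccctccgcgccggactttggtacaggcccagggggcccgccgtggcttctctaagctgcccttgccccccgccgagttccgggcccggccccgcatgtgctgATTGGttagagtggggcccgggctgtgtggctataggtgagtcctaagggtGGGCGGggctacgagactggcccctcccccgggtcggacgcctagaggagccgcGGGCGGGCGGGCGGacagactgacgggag
Hdac2: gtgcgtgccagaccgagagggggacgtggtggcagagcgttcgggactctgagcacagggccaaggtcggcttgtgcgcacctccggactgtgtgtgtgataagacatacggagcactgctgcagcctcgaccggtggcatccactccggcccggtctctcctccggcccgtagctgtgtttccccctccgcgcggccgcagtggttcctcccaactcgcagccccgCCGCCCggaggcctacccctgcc
Hdac3: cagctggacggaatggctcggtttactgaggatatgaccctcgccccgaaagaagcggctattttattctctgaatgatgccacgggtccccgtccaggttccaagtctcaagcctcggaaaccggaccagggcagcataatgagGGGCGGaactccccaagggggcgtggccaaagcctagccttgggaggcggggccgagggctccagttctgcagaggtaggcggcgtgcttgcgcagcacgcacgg

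The Hdac1 window held 4 matches to GGGCGG, of which 3 form a run within the last 29 bases before the start, each sharing bases with the next, and 1 CCAAT box whose first base lies 134 bases before the start. The Hdac2 window held 1 GGGCGG match and the Hdac3 window 1, and neither held CCAAT. Of 33469 RefSeq promoter windows of this length, 30.5% held GGGCGG and 34.0% held CCAAT, so each is common. None of the 3 windows held the letters TATAAA, which 12.9% of all windows held. The windows had 23, 23 and 18 CpG dinucleotides for Hdac1, Hdac2 and Hdac3, against a median of 5 over all windows. These matches describe letters in 1 window per gene and show nothing about binding in these cells.

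The transcript of Hdac1 was 1.83-fold higher in the MS-275-treated libraries, while the differences of Hdac2 and Hdac3 were small and did not pass the test. Levels are given in CPM, counts scaled to a common library total with edgeR's TMM factors, which allow for differences in library composition. Hdac1 had 482, 418 and 435 CPM in the controls and 894, 815 and 738 CPM in the treated libraries. Even the lowest treated library was above the highest control, so the groups did not overlap. The mean went from 445 ± 33.2 CPM in the controls to 816 ± 77.9 CPM with MS-275 (SD, n = 3 each). On the log2 scale Hdac1 was higher by 0.87, with a standard error of 0.09 and a 95% interval from 0.69 to 1.06 (edgeR's quasi-likelihood test, adjusted p = 4.50e-07 by Benjamini-Hochberg over all genes). The interval spans folds from 1.61 to 2.08. The underlying counts were 3831, 3401 and 2512 in the controls and 4838, 4155 and 6600 with MS-275, well above the range where counting noise decides a fold change. In bulk RNA these values are relative to the other transcripts, and a change of RNA per cell and a change in the mix of cells cannot be told apart.

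Hdac2, the closest paralog of Hdac1 and its partner in the same complexes, had 304, 290 and 297 CPM in the controls and 350, 322 and 316 CPM with MS-275. The 3 treated libraries were all above the 3 controls on this scale. The means were 297 ± 7.47 CPM (SD, n = 3) and 329 ± 18.0 CPM (SD, n = 3), a difference larger than either SD. The log2 fold change was 0.15 (standard error 0.07, 95% interval -0.01 to 0.30, adjusted p = 0.0918 in the same test), and so was not past the threshold of 0.05. The interval runs from a fold of 0.994 to 1.24. The call of this gene depended on the scaling and on the libraries used. As a plain share of the counts on genes it made up 0.0314%, 0.0295% and 0.0301% in the controls and 0.0342%, 0.0313% and 0.0308% with MS-275, so that control replicate 1 lay above MS-275 replicates 2 and 3. With upper-quartile scaling the log2 fold change was 0.24 and passed (adjusted p = 0.0111, edgeR), and without MS-275 replicate 3 it was 0.18 and passed narrowly (adjusted p = 0.0493, edgeR).

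Hdac3, the enzyme of the NCoR/SMRT corepressor, was at 128, 142 and 142 CPM in the controls and at 137, 145 and 146 CPM with MS-275. The groups overlapped, since MS-275 replicate 1 was below control replicates 2 and 3. The means were 137 ± 8.00 CPM (SD, n = 3) and 143 ± 5.25 CPM (SD, n = 3), a difference within the spread of the controls. The log2 fold change was 0.06 (standard error 0.08, 95% interval -0.11 to 0.22, edgeR, adjusted p = 0.560), a fold between 0.925 and 1.17 by its interval, and its sign turned to -0.01 with library sizes alone. This interval and that of Hdac1 do not overlap, although a p above the threshold does not show that the level of Hdac3 was the same in both groups.

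**Figure D1:**
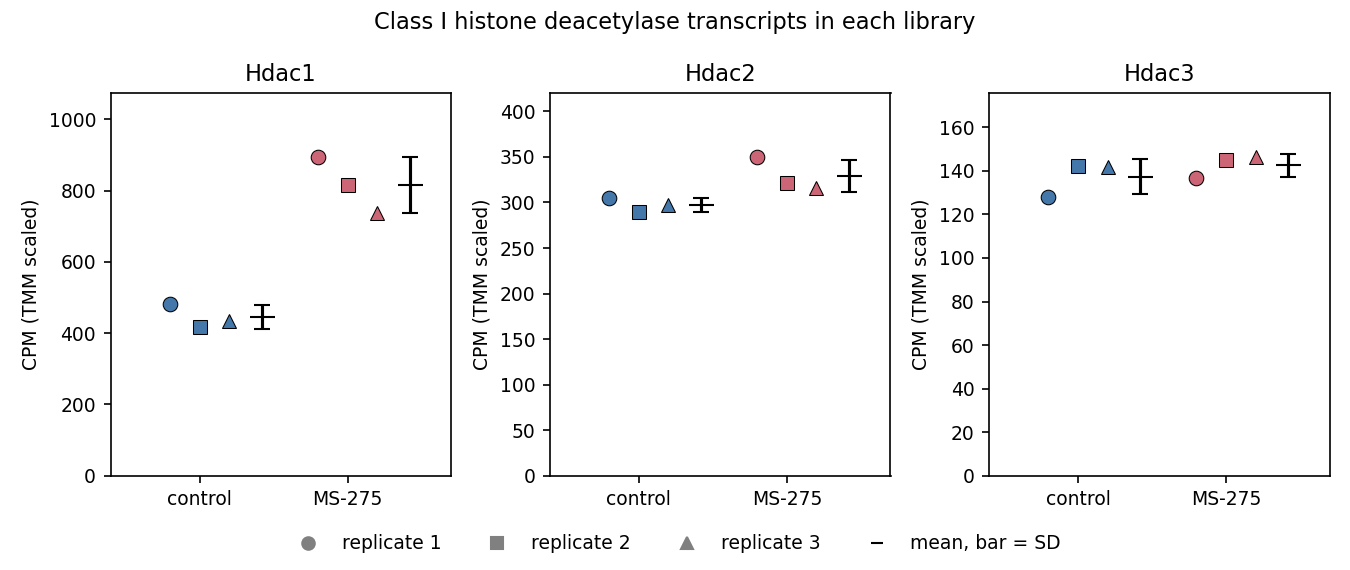
CPM after TMM scaling (vertical axes, each starting at 0, with a different range per gene) of Hdac1, Hdac2 and Hdac3 in the 3 control and 3 MS-275-treated libraries; symbols give the replicate number, and the black marks give the mean with its SD. For Hdac1 the treated libraries lie between 738 and 894 CPM and the controls between 418 and 482 CPM, whereas for Hdac3 the groups overlap.

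Of the 3 members, 1 was called higher and 0 were called lower at an adjusted p under 0.05. The members have to be read against a transcriptome that changed widely. Of the 12596 genes tested, 63.6% were called at this threshold by edgeR, 32.1% as higher and 31.5% as lower. This even split depended on the scaling, with 3661 genes higher and 4451 lower by library sizes alone and 4593 higher and 3287 lower by upper-quartile scaling. A single call among 3 genes is therefore not more than the 63.6% called in either direction, and is close to the 32.1% called higher. When a 2-fold difference in either direction was required as well, 19.1% of the tested genes were called, 13.9% as higher and 5.16% as lower, and 0 of the 3 members, since Hdac1 stood at 1.83-fold with an interval that reached 2.08-fold. Groups did not overlap in 68.1% of all tested genes (34.1% with the treated libraries higher), so the lack of overlap for Hdac1 and Hdac2 is not unusual in these libraries. The exact permutation test over libraries gave p = 0.1 (two-sided) for Hdac1 and for Hdac2, the smallest that 3 against 3 allow, and p = 0.5 for Hdac3.

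The size of the Hdac1 difference stood further out among genes with many counts in the controls. Over all tested genes, 16.3% had a higher log2 fold change than Hdac1. Among the 271 other genes with at least the control CPM of Hdac1, 9 genes (3.32%) had a log2 fold change as high or higher, and the median was -0.01. CPM here serves as a measure of how many counts a gene had and is not corrected for transcript length. Genes were taken by their control level, against which the fold change is measured. Genes that reach such a level only with MS-275 were thus left out, which can lower these percentages. The same comparison for Hdac2 gave 149 of 522 genes (28.5%) and for Hdac3 533 of 1750 genes (30.5%), with medians of -0.12 and -0.18. The position of Hdac1 is a description of these libraries, and no test was made of it.

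**Figure D2:**
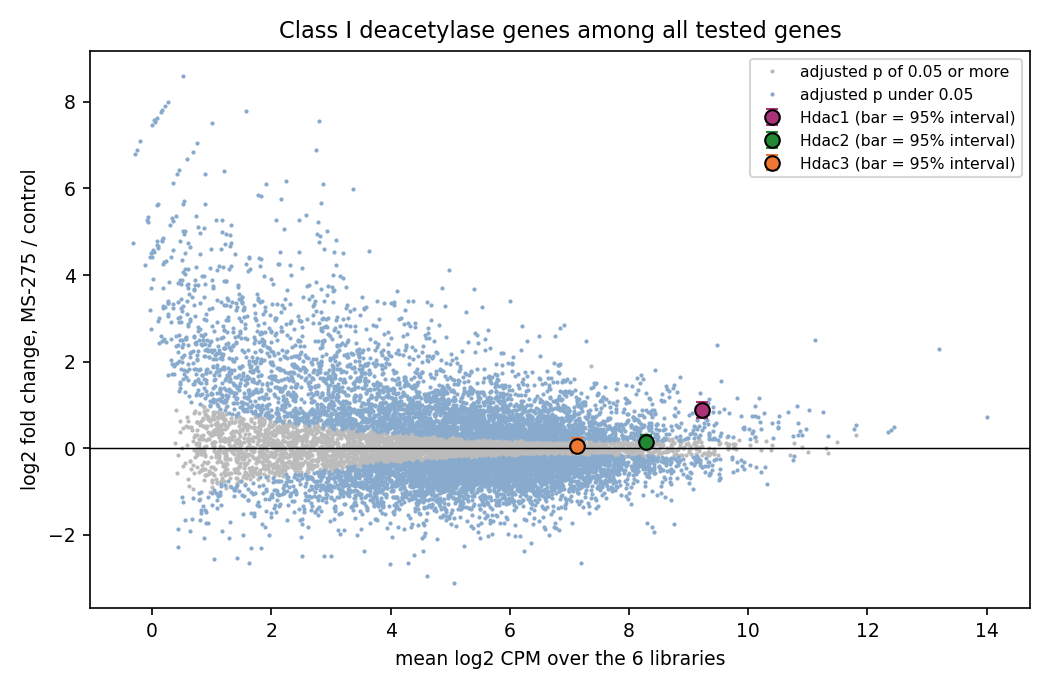
Log2 fold change of MS-275 against control (vertical axis) against the mean log2 CPM over the 6 libraries (horizontal axis) for the 12596 tested genes, blue where the adjusted p was under 0.05 and grey otherwise; the large symbols are the members with their 95% intervals. Hdac1 lies at 0.87, with 16.3% of all tested genes higher, and Hdac2 (0.15) and Hdac3 (0.06) lie close to 0.

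Whether Hdac1 responded differently from the other members was examined with the ratio of their counts within each library, in which library size and scaling cancel. Counts are not corrected for transcript length, so a ratio does not give which transcript is more abundant, and only its change between groups is read. The Hdac1/Hdac2 ratio was 1.58, 1.44 and 1.46 in the controls and 2.56, 2.54 and 2.33 with MS-275. The groups were far apart compared with the spread within either of them, with means of 1.50 ± 0.0754 (SD, n = 3) and 2.47 ± 0.123 (SD, n = 3). On the log2 scale, with 0.5 added to each count, the difference was 0.73, a 1.65-fold rise of Hdac1 relative to its paralog.

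The Hdac1/Hdac3 ratio was 3.76, 2.94 and 3.07 in the controls and 6.55, 5.63 and 5.05 with MS-275. It also did not overlap between groups and was 0.82 higher on the log2 scale with MS-275. The Hdac2/Hdac3 ratio was 2.38, 2.03 and 2.10 in the controls and 2.56, 2.22 and 2.16 with MS-275, and here the groups overlapped. Its log2 difference of 0.09 was smaller than the SD of 0.12 within the controls, and it was 0.02 without MS-275 replicate 1 and 0.16 without control replicate 1. With 1 library left out at a time, the difference was between 0.70 and 0.77 for Hdac1/Hdac2 and between 0.72 and 0.93 for Hdac1/Hdac3. Over these 3 pairs the exact permutation test (two-sided) gave p = 0.1 for both ratios with Hdac1 and p = 0.5 for Hdac2/Hdac3, and after Benjamini-Hochberg adjustment 0.15, 0.15 and 0.5. With 3 libraries against 3 no p of this test can pass 0.05. The share of Hdac1 in their summed counts was 50.6% ± 1.88 in the controls and 63.3% ± 1.67 with MS-275 (SD, n = 3 each), that of Hdac2 was 33.8% ± 0.432 and 25.6% ± 0.665 (SD, n = 3 each), and that of Hdac3 was 15.7% ± 1.45 and 11.1% ± 1.15 (SD, n = 3 each). The shares of Hdac2 and Hdac3 are lower while their CPM were not, since the 3 shares are bound to sum to 100.

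**Figure D3:**
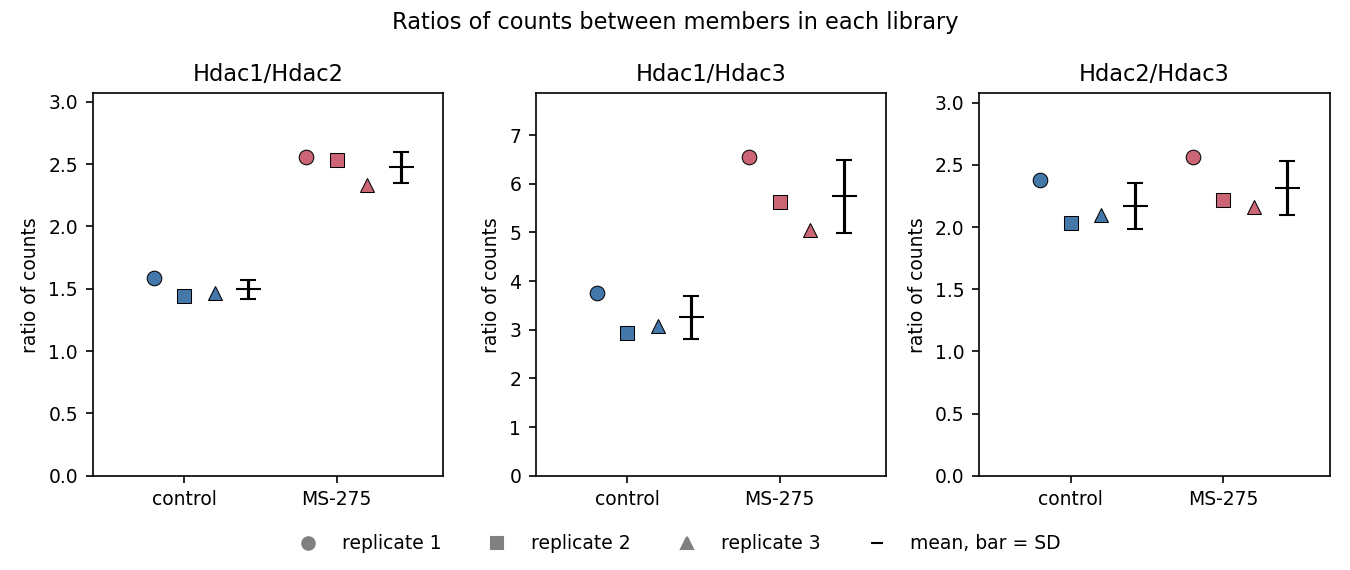
Ratio of counts between members (vertical axes, starting at 0) in each of the 3 control and 3 MS-275-treated libraries, with replicate numbers as symbols and the mean with its SD in black. Hdac1/Hdac2 lies between 1.44 and 1.58 in the controls and between 2.33 and 2.56 with MS-275, and Hdac2/Hdac3 overlaps between the groups.

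The summed level of the 3 members followed Hdac1, the only one of them that passed the test. It was 915, 850 and 873 CPM in the controls and 1380, 1282 and 1200 CPM in the treated libraries. The means were 879 ± 32.8 CPM (SD, n = 3) and 1287 ± 89.9 CPM (SD, n = 3), without overlap. Within the groups Hdac1 and Hdac2 deviated in the same direction. Control replicate 1 and MS-275 replicate 1 were the highest of their groups for both genes and the lowest of their groups for Hdac3. The correlation of the deviations from group means over the 6 libraries was 0.91 between Hdac1 and Hdac2 and -0.89 between Hdac1 and Hdac3, given as a description of libraries that share scaling and treatment.

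By Pearson's r of log2 CPM over the 6 libraries, among 9918 other genes averaging 10 CPM or more, the gene most like Hdac1 was ENSRNOG00000021150, with r = 1.00 to 2 decimals. It had 36.5 ± 4.31 CPM in the controls and 89.3 ± 11.2 CPM with MS-275 (SD, n = 3 each). This gene was higher by 1.28 on the log2 scale (standard error 0.12, edgeR, adjusted p = 1.90e-07). It was picked by r over libraries of both groups, which favours a gene with the group difference of Hdac1, so this p-value is no separate result. With the group means removed, r was still 0.99. Such likeness was common, since 1454 genes had an r of at least 0.95 with Hdac1 and 276 genes shared its exact order of libraries (Spearman's rho of 1). The gene most like Hdac2 was ENSRNOG00000014515 (r = 0.99, and 0.98 with the group means removed), at 11.7 ± 0.512 CPM in the controls and 15.0 ± 1.92 CPM with MS-275 (SD, n = 3 each). Its difference of 0.36 on the log2 scale did not pass (adjusted p = 0.0632, edgeR). Only 161 genes reached an r of 0.95 with Hdac2 and 8 with Hdac3.

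Annotated copies could share reads with Hdac1, which was not measured here. RefSeq's annotation of GRCr8 lists 18 pseudogenes named after Hdac1 and 1 gene named Hdac1l, against 1 pseudogene named after Hdac2 and none after Hdac3. Reads that align equally well to more than 1 place are set aside in the count tables and enter no gene. They made up 8.04% ± 0.130 of the alignments in the controls and 8.89% ± 0.264 with MS-275 (SD, n = 3 each), and reads ambiguous between overlapping genes 0.174% ± 0.00348 and 0.202% ± 0.0178 (SD, n = 3 each). The tables do not say how many of them belong to Hdac1, and their part in its difference was not tested. The deepest and the shallowest library were both MS-275-treated, but other library measures parted the groups. The share of alignments on genes was between 30.7% and 31.4% in the controls and between 29.2% and 30.2% with MS-275, and between 14307 and 14619 genes had a count in the controls against 15166 to 15448 with MS-275. The part of these in the differences of the members was not tested either.

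**Figure D4:**
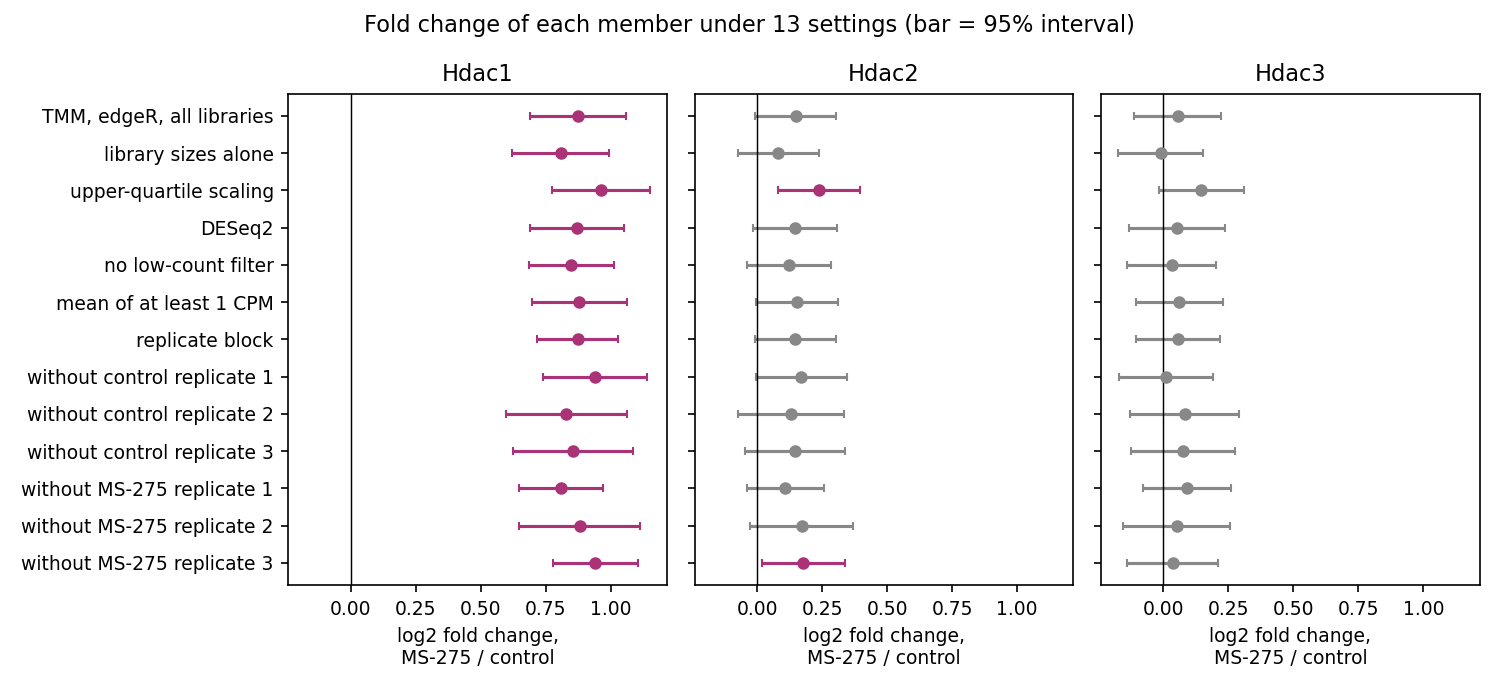
Log2 fold change of MS-275 against control (horizontal axes) of each member under 13 settings (rows: the reported test, then other scalings, tools, filters, a replicate block, and each library left out), with 95% intervals as bars; purple marks an adjusted p under 0.05 and grey one of 0.05 or more. Hdac1 stays between 0.81 and 0.96 in the alternatives, Hdac2 passes in 2 of them, and Hdac3 passes in none.

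Across the 12 alternative fits the log2 fold change of Hdac1 was between 0.81 and 0.96, and its adjusted p from edgeR or DESeq2 was at most 2.85e-05. Hdac2 was between 0.08 and 0.24 and Hdac3 between -0.01 and 0.15. Hdac2 was thus higher in 12 of 12 alternatives but past the threshold in 2, and Hdac3 was past it in 0 of 12.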

How the data were processed

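RNA from 3 control and 3 MS-275-treated BRIN-BD11 libraries was sequenced by the authors as paired-end reads. Per the methods, the authors filtered contaminants by mapping with bowtie2 and mapped the remaining reads to Rnor_6.0 by STAR (the submitters' processing notes also list Trimmomatic). The deposited values are raw counts per gene, for 22250 genes in each library. The methods name featureCounts, whereas each file closes with 5 htseq-count summary lines, which name no gene and held between 68.6% and 70.8% of the alignments, left out here. The strand setting and the annotation release are not given in the sources used here. The authors also deposited their DESeq2 comparison (group means, log2 fold changes, p-values), which was not used.

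With edgeR 4.0.16 under R 4.3.3, filterByExpr retained 12596 genes, which were scaled by TMM (factors between 0.976 and 1.03) and tested on the counts with glmQLFit and glmQLFTest, robust, without a block, with Benjamini-Hochberg adjustment over all tested genes. The standard error is the log2 fold change divided by the square root of F. No replicate pair was a copy, with chi-square per degree of freedom of at least 1.79. The edgeR and DESeq2 fits were tested on simulated data in which few genes changed, as many up as down. That setting does not test the scaling where most genes are called.

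The members and lists were chosen with earlier results of these data known. Named genes are the members and the genes of highest r with a member, limited to 2 higher and 2 lower with MS-275, which left those for Hdac1 and Hdac2, since that for Hdac3 was the third higher one and had the lowest r. Lists of other deacetylases, corepressor subunits, acetyltransferases, acetyl-lysine readers and cell type markers were set but not run, since none of the 47357 RefSeq genes at hand carries an Ensembl identifier. Alternatives were DESeq2 1.42.0, upper-quartile scaling, library sizes alone, a replicate block, no low-count filter, a mean of at least 1 CPM, and leaving out each library.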

Additional observations from a re-analysis of the deposited data

How the results depend on the processing

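The call of Hdac1 as higher held in all 12 alternative fits. Hdac2 passed the threshold with upper-quartile scaling (log2 fold change 0.24, adjusted p = 0.0111) and without MS-275 replicate 3 (0.18, adjusted p = 0.0493, both edgeR), so that 2 members were called higher in these settings, against 0 when a 2-fold difference was required. Hdac3 turned to -0.011 with library sizes alone. That scaling put the median log2 fold change over all tested genes at -0.08, upper-quartile scaling put it at 0.08 and TMM at -0.01. Leaving out 1 library at a time, the log2 fold change was between 0.81 and 0.94 for Hdac1, 0.11 and 0.18 for Hdac2, and 0.01 and 0.09 for Hdac3, with 1 to 2 members called higher. Without control replicate 1 the value of Hdac3 was the lowest of these. The mean of Hdac2 in the controls was 288 CPM with upper-quartile scaling against 297. With a limit of 1 CPM another gene was most like Hdac2, with r = 1.00. The cause of these changes was not tested. Correlations of same-numbered deviations from group means were 0.16, -0.02 and 0.13. Differently numbered libraries were not compared, so these values cannot decide whether same replicate numbers mark paired libraries. With the replicate block the log2 fold changes were 0.87, 0.15 and 0.05 for Hdac1, Hdac2 and Hdac3, with no change of call. Of 147 alternative values, 139 changed neither call nor direction, or moved by less than the replicate spread or 1.5 times for a count. Alternatives set for gene lists were not run, since no names could be matched.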
